A study of Mus musculus with 3 samples.

Results

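The genes described here encode the kinesins, cytoplasmic dyneins and dynactin, the machinery that moves cargo along microtubules. They were all gene rows whose symbol begins with Kif followed by a digit or c, Klc followed by a digit, Dync, Dynll, Dynlr or Dynlt, or Dctn followed by a digit, which gave 67 of the 32531 gene rows. The rule used names only and no measured value. By role they comprised 3 kinesin-1 heavy chains, 4 kinesin light chains, 4 kinesin-2 genes, 7 kinesin-3 genes, 6 kinesin-4 genes, 13 other kinesins of cell division or the centrosome, 9 other kinesins, 5 core chains of dynein 1, 8 dynein light chains, 2 dynein 2 genes and 6 dynactin genes.

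The data are translating ribosome affinity purification with RNA sequencing (TRAP-seq) of the cerebral cortex of adult, untreated mice of strain C57BL/6J carrying the transgene Kcnip2-EGFP/Rpl10a (line NIDA115). Such a line makes an EGFP-tagged ribosomal protein L10a wherever the control regions of Kcnip2, a potassium channel subunit gene, are active, and an antibody to EGFP then isolates the tagged ribosomes and the RNA on them. The 3 immunopurified libraries, replicates 1, 2 and 3, form a single group, and all of them carry the transgene. Neither input RNA nor cortex without the transgene was analysed here. The values are therefore levels in the immunoprecipitate and not enrichment over whole cortex, and a difference in the number of cells of a type cannot be told apart from a difference in RNA per cell. The labels do not say whether the libraries came from separate or pooled animals, so the spread between them may be technical.

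Microtubules are polar tracks. Most kinesins walk toward the plus end, which in axons points away from the cell body, and carry vesicles, mitochondria and other cargo outward. Cytoplasmic dynein 1, together with the multisubunit activator dynactin, walks toward the minus end and returns endosomes, autophagosomes and signalling cargo from the axon. A further group of kinesins builds and moves the mitotic spindle, and kinesin-2 and dynein 2 serve transport inside cilia.

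Some members resemble each other in sequence, to unlike degrees, which bears on what a read count can tell apart. The LC8 dynein light chains encoded by Dynll1 (chromosome 5) and Dynll2 (chromosome 11) share 81.3% of their 267 coding bases. Their coding sequences from GENCODE M21 transcripts (GRCm38, stop codon left out) are shown 5′ to 3′ because the results compare these genes, with the 50 bases at which they differ in capitals.
Dynll1: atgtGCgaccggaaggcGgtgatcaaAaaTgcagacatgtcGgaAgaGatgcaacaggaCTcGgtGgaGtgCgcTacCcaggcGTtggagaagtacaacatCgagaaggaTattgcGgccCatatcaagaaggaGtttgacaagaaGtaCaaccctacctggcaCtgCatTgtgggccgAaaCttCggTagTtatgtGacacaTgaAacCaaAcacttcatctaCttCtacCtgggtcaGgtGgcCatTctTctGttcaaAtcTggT
Dynll2: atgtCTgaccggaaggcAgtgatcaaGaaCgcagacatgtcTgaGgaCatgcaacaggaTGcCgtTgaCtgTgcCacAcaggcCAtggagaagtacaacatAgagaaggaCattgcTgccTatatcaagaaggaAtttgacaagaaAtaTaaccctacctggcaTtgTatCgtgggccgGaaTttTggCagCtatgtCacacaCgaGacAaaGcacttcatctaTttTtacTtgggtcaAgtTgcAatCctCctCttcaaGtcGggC
The differences were spread along the whole length, and the longest stretch of identical bases was 16. By contrast, the Tctex-type light chain genes Dynlt1a, Dynlt1b and Dynlt1f, which lie within a stretch of chromosome 17, are close to identical. The first 120 of their 339 coding bases follow, with the single differing base in capitals.
Dynlt1a: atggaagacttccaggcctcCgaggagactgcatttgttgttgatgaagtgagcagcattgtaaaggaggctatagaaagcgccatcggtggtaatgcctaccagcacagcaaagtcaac
Dynlt1b: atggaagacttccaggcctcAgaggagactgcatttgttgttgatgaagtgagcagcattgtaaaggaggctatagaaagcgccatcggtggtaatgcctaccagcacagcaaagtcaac
Dynlt1f: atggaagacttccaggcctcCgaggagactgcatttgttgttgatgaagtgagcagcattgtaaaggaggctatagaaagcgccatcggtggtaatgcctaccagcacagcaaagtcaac
Dynlt1a and Dynlt1f had the same coding sequence (100% of 339 bases), and Dynlt1b differed from each of them at 1 base (99.7%). Of the 50-base stretches of their longest coding transcripts, 67.73% for Dynlt1a, 83.24% for Dynlt1b and 93.07% for Dynlt1f also occurred in another gene, against 3.483% for Dynll1 and 0 for Dynll2. Counts of the 3 Dynlt1 genes are therefore uncertain, as are those of Kifc1 and Kifc5b, which shared 47.57% and 42.1% of such stretches with other genes, mainly with each other and with related loci.

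Gene counts totalled 11602248 in replicate 1, 13635132 in replicate 2 and 14174384 in replicate 3, and a count of 0 allows a level of up to 0.256, 0.221 and 0.213 CPM (3 counts, counting error only). CPM here are counts scaled by library size with TMM factors, in the usual unit, and values are mean ± SD over n = 3 libraries unless stated otherwise. All 9 neuronal marker genes were detected, with a median level of 808 CPM. Their summed level was 39496 to 45694 CPM, with Snap25 highest at 33507 ± 2340 CPM. Kcnip2 itself was at 164 ± 22.0 CPM. Markers of other cells were present too: the summed level of 8 astrocyte genes was 2531 to 4066 CPM, of 8 oligodendrocyte genes 555 to 737, of 7 microglial genes 40.3 to 61.3 and of 7 endothelial and mural genes 17.7 to 25.4. The libraries differed most in nuclear noncoding RNA, with 6 such genes summing to 10740 CPM in replicate 1, 3582 in replicate 2 and 2477 in replicate 3, and in Ttr, a choroid plexus gene, with 0, 569 and 0 counts.

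Motor genes were well represented in the immunoprecipitates. Of the 67 members, 43 were detected, that is at 1 CPM or more in all 3 libraries (64.2%), against 37.3% of all gene rows. A further 8 reached 1 CPM in 1 or 2 libraries, and 4 had no read in any library (Kif12, Kif2b, Kif2c and the pseudogene Kif4-ps). The 37.3% also covers noncoding and clone-named rows, so it is not a share over genes of the same kind. The detected members had a median level of 101 CPM and 21.1 CPM per kilobase of exon, where the medians over all detected genes were 21.3 CPM and 4.77 CPM per kilobase. At the upper end, 21 of the 67 members were at 100 CPM or more in all 3 libraries, as were 1874 of the 32531 gene rows. Members took 1.02% of gene counts in replicate 1, 1.07% in replicate 2 and 1.06% in replicate 3, and their 5 most abundant genes made up 54.8% of the members' CPM. The plot of member levels by role shows each detected gene in each library.

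**Figure D1:**
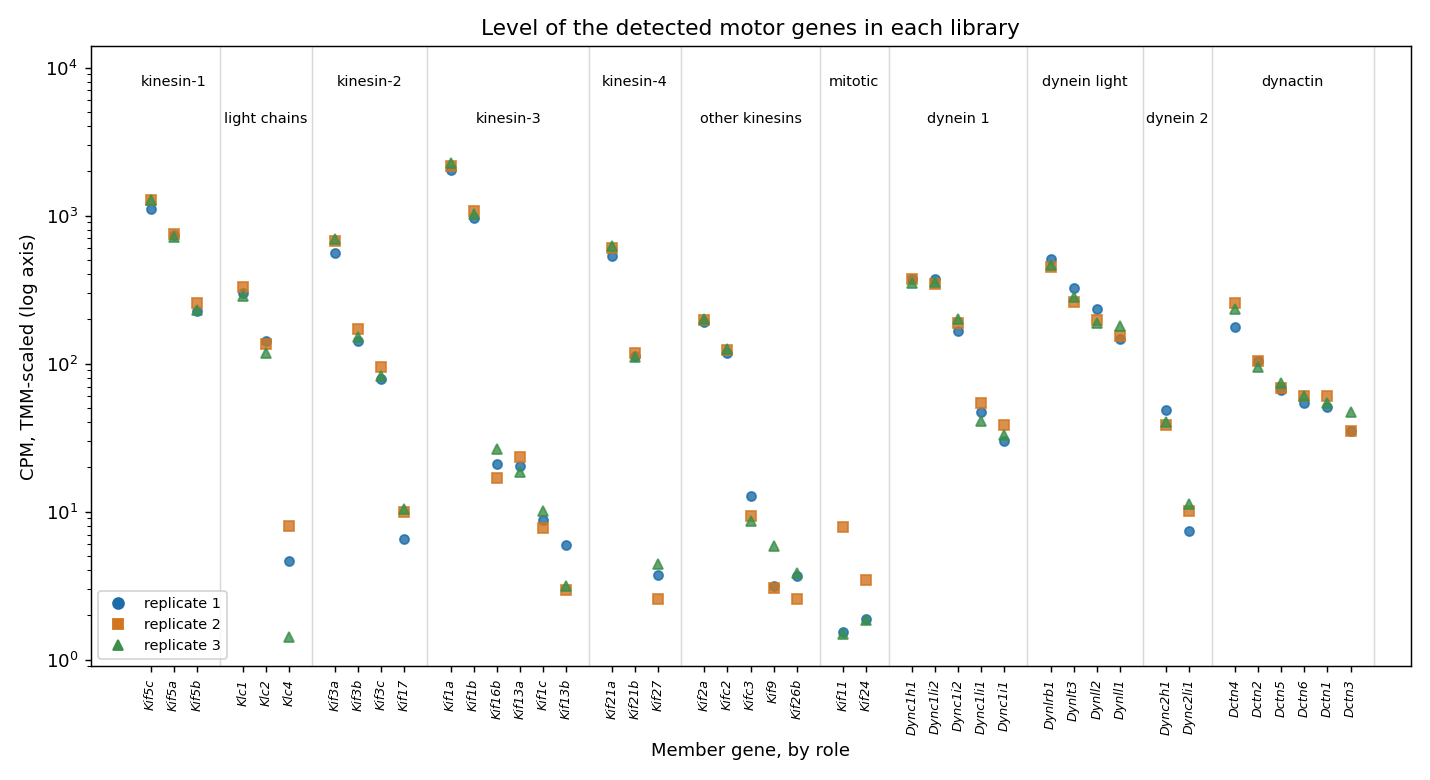
Level of the 43 detected motor genes in each library, in TMM-scaled CPM on a log axis, with genes ordered by mean level within each role and symbols marking replicates 1, 2 and 3. Kif1a lay highest at 2036 to 2249 CPM, and Kif11 and Klc4 spread most between libraries.

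Kinesin-1, the conventional kinesin of fast axonal transport, is a tetramer of 2 heavy chains and 2 light chains. All 3 heavy chain genes were abundant. Kif5c was at 1112, 1281 and 1275 CPM in replicates 1, 2 and 3, Kif5a at 736, 746 and 712, and Kif5b, the form found in most tissues, at 226, 255 and 229. The ranges of the 3 genes did not overlap. Levels per kilobase of exon compare genes only as far as the length used, the union of annotated exons, holds. By this measure the levels were 171 ± 13.5 for Kif5c, 105 ± 2.54 for Kif5a and 29.7 ± 1.98 for Kif5b. Kif5c thus made up 56.0% ± 2.01 of the heavy chain level per kilobase, Kif5a 34.3% ± 1.84 and Kif5b 9.71% ± 0.38, and the shares by counts were nearly the same (55.8%, 33.4% and 10.8%). The log2 ratio of Kif5a to Kif5c per kilobase was -0.56, -0.75 and -0.81 in replicates 1, 2 and 3, so that Kif5c was higher in 3 of 3 libraries. Ratios carry no p here, since exact sign flips over 3 libraries give 0.25 at the least.

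The light chains, which bind cargo and hold the motor inactive when it has none, were led by Klc1. Klc1 was at 298, 332 and 286 CPM and Klc2 at 142, 136 and 119, with no overlap. Klc1 made up 68.8% ± 1.79 and Klc2 29.4% ± 1.72 of the light chain level per kilobase, and Klc1 was 2.35-fold above Klc2 (log2 ratio 1.23 ± 0.12). Klc4 was scarce and uneven, at 4.61, 7.96 and 1.42 CPM (54, 108 and 20 counts). Klc3 had 0, 0 and 7 counts. Summed over genes, heavy chains reached 306 ± 14.8 CPM per kilobase and light chains 109 ± 8.98, a log2 ratio of 1.49 ± 0.12, while the ratio by counts was 2.31.

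Kinesin-2 is a heterotrimer in which KIF3A pairs with KIF3B or KIF3C and binds the cargo adaptor KAP3, the product of Kifap3. Kif3a was at 555, 678 and 698 CPM, Kif3b at 141, 170 and 151, and Kif3c at 78.4, 95.2 and 82.4. All 3 genes were lowest in replicate 1. The level per kilobase of Kif3a, 179 ± 21.7, exceeded that of its partners Kif3b and Kif3c together, 38.9 ± 3.78, by a log2 ratio of 2.20 ± 0.13 (1.42 by counts, 1.5 per coding kilobase). Kif3a was also above Kifap3, which was at 84.6 ± 8.74 CPM per kilobase (log2 ratio 1.08 ± 0.10). The excess over Kif3b depended on the length used, with a log2 ratio of 2.71 ± 0.13 per kilobase of exon, 2.06 by counts and 2.10 per kilobase of coding sequence. Reads of Kif3c may be shared as well, since 43.43% of the 50-base stretches of its transcript also occurred in the overlapping models 1110002L01Rik and Gm48512. Kif17, the homodimeric kinesin-2 known for carrying NMDA receptor vesicles in dendrites, was far lower, at 6.48, 9.88 and 10.4 CPM, and was likewise lowest in replicate 1.

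**Figure D2:**
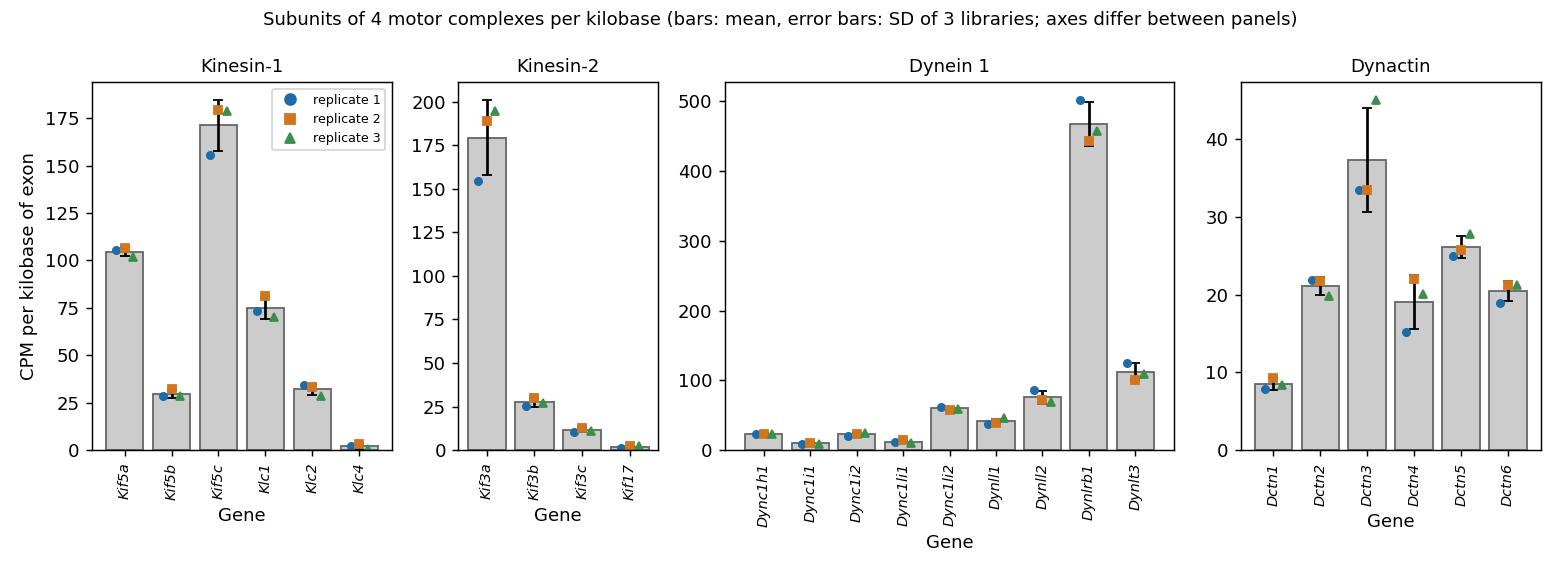
Level per kilobase of exon of the detected subunits of kinesin-1, kinesin-2, dynein 1 and dynactin, as bars for the mean, error bars for the SD and symbols for the 3 libraries, with a separate axis from 0 in each panel. Kif5c, Kif3a, Dynlrb1 and Dctn3 had the highest mean in their panels, at 171, 179, 468 and 37.3 CPM per kilobase.

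Kinesin-3 motors carry synaptic vesicle precursors, dense core vesicles and endosomes. Kif1a, the synaptic vesicle precursor motor, was the most abundant member by CPM, at 2036, 2157 and 2249 CPM, and lay at percentile 99.3 of the detected genes per kilobase. Kif1b, whose isoforms carry mitochondria or synaptic vesicle precursors, followed at 969, 1076 and 1018 CPM. The other detected kinesin-3 genes were lower by more than an order of magnitude: Kif16b, an endosome motor, at 20.8, 16.9 and 26.4 CPM, Kif13a at 20.7 ± 2.51, Kif1c at 8.89 ± 1.20 and Kif13b at 5.97, 2.95 and 3.12. Per kilobase, Kif1a made up 79.5% ± 0.733 of the 3 Kif1 genes, Kif1b 20% ± 0.784 and Kif1c 0.422% ± 0.0529. By counts the shares of Kif1a and Kif1b were 67.6% and 32.1%, so the size of the Kif1a excess rests on the length, with log2 ratios of 1.99 ± 0.07 per kilobase of exon, 1.07 by counts, 1.09 per coding kilobase and 1.39 per kilobase of the longest transcript. The log2 ratio of Kif1a to Kif5c, 0.43 ± 0.06 per kilobase of exon and 0.81 by counts, became -0.09 per coding kilobase, so the order of these genes rests on the length. Kif13b was below Kif13a in 3 of 3 libraries, with a log2 ratio of -2.44 in replicate 1, -3.66 in replicate 2 and -3.24 in replicate 3, the widest spread of the 18 pairs compared (mean -3.11 per kilobase of exon, -2.43 by counts, -2.51 per coding kilobase).

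Among kinesin-4 genes, Kif21a and Kif21b, which limit microtubule growth, stood apart from the rest. Kif21a was at 535, 606 and 625 CPM and Kif21b at 112, 118 and 110. Kif21a made up 90.7% ± 0.733 of their joint level per kilobase, and the log2 ratio was 3.29 ± 0.13 per kilobase of exon and 2.37 by counts. Kif27, a relative of the Hedgehog regulator Kif7, was at 3.75, 2.58 and 4.395 CPM. Kif7 itself and the chromosome motor Kif4 were not detected.

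Of the other kinesins, Kif2a, a microtubule depolymerase that trims axon branches, was at 191, 196 and 200 CPM, and Kifc2, a minus-end directed kinesin first described in neurons, was at 118, 123 and 126. These genes were among the steadiest members, with coefficients of variation of 2.46% and 3.30%. Kifc3 was lower at 12.7, 9.36 and 8.65 CPM, and the log2 ratio of Kifc2 to Kifc3 was 4.02 ± 0.34 per kilobase. Kif9 (4.02 ± 1.61 CPM) and Kif26b (3.36 ± 0.679 CPM) completed the 5 detected of 9.

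Kinesins of cell division were scarce. Only Kif11 and Kif24 were detected of 13, and the summed level of the 13 genes was 11, 16.3 and 9.78 CPM. Kif11, the spindle motor Eg5, was at 1.54, 7.81 and 1.49 CPM (18, 106 and 21 counts), so that a single library set its mean of 3.61 CPM, which was 1.52 CPM without replicate 2. Kif24, a centriole and cilium regulator, was at 1.88, 3.47 and 1.84 CPM and was also highest in replicate 2. Kif22, the next in level, had 28, 18 and 9 counts. The mitotic depolymerase Kif2c had no read, and Kif2a, its relative, was at least 508-fold higher per kilobase in every library, taking 3 counts per library as the floor for Kif2c (745-fold by counts). Markers of dividing cells were similarly scarce. Of 12, 2 were detected, Mki67 at 8.96, 4.72 and 2.41 CPM and Aurka at 4.18, 4.57 and 3.19, and Aurkb was at 0. The summed level of the 12 was 19.8, 11.4 and 8.86 CPM, highest in replicate 1, as was Mki67. Aurka, like Kif11, was highest in replicate 2. The part of dividing cells in the counts of Kif11 was not tested.

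Cytoplasmic dynein 1 is built on a dimer of the heavy chain, the ATPase that walks, which carries intermediate and light intermediate chains and 3 families of light chains. All 5 core genes were detected. Dync1h1, the heavy chain, was at 371, 370.5 and 352 CPM, and Dync1li2, a light intermediate chain that links the motor to cargo adaptors, at 374, 347 and 358. Dync1i2, the intermediate chain gene of most cell types, was at 167, 189 and 200 CPM, while Dync1i1, known as the neuronal form, was at 30.0, 38.4 and 33.1. Dync1i2 was thus above Dync1i1 in 3 of 3 libraries, with 70.3% ± 2.18 of their level per kilobase and 84.6% ± 1.37 of their counts. Dync1li1 was at 47.0, 54.1 and 40.9 CPM, and Dync1li2 held 83.0% ± 2.27 of the light intermediate level per kilobase. The log2 ratio of Dync1i2 to Dync1i1 was 1.24 ± 0.15 per kilobase of exon and 2.45 by counts.

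The light chain genes Dynlrb1, Dynlt3 and Dynll2 had the highest levels of the dynein subunits per kilobase. Dynlrb1, a roadblock light chain, was at 507, 447 and 462 CPM, which on its short exons gave 468 ± 30.9 CPM per kilobase, the highest of all members and percentile 99.7 of detected genes. Its paralog Dynlrb2 had 0, 0 and 6 counts. Dynlt3, a Tctex-type light chain, was at 323, 261 and 283 CPM (112 ± 12.3 per kilobase). Dynlt1a, Dynlt1b and Dynlt1f, whose near-identical coding sequences are printed above, had only 20, 6 and 14, then 5, 3 and 4, then 15, 4 and 16 counts, and their place in the text was chosen after their values were seen. Reads that did not align uniquely, 13.81% to 19.39% of all tallied, were left out of gene counts, and how many of them came from the Dynlt1 copies was not tested.

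The LC8 genes, which encode a dimeric hub shared by dynein and other complexes, differed in their ratio between libraries. Neither gene passed the between-library test described below (edgeR adjusted p = 0.997 for Dynll1 and 0.994 for Dynll2). Dynll2 was at 235, 198 and 187 CPM and Dynll1 at 147, 154 and 178. The gap was widest in replicate 1 and narrowest in replicate 3, with log2 ratios of Dynll1 to Dynll2 of -1.18, -0.88 and -0.58 per kilobase of exon. Dynll2 was the higher in 3 of 3 libraries per kilobase of exon, at 64.7% ± 4.77 of the level per kilobase and 56.3% ± 5.14 of counts. The mean log2 ratio was -0.88 ± 0.30 per kilobase of exon, -0.37 by counts or per coding kilobase, and -0.23 per kilobase of the longest annotated transcript. On that last length replicate 3 lay at 0.07, with Dynll1 the higher, so the order of these genes held in 2 of 3 libraries there.

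The balance between dynein subunits could be stated only loosely. Per kilobase of exon, the heavy chain was at 23.3 ± 0.685 CPM, intermediate chains summed to 31.8 ± 2.84, light intermediate chains to 71.9 ± 2.12, LC8 chains to 117 ± 6.34 and roadblock chains to 468 ± 30.7. Each sum was above the heavy chain in 3 of 3 libraries, with log2 ratios of 0.45 ± 0.16, 1.63 ± 0.03, 2.32 ± 0.07 and 4.33 ± 0.09. Without division by length these ratios were -0.74, 0.16, 0.01 and 0.37, so the intermediate chains lay below the heavy chain by counts. Per coding kilobase they were 2.12, 3.39, 5.71 and 5.85. The heavy chain gene has a far longer transcript than the light chain genes, and the spread between libraries was small beside the effect of the length.

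Dynein 2, the retrograde motor of cilia, was lower. Dync2h1, its heavy chain, was at 48.4, 38.4 and 40.2 CPM, and Dync2li1, its light intermediate chain, at 7.42, 10.03 and 11.3. Dync1h1 was 9.03-fold above Dync2h1 per kilobase (log2 ratio 3.18 ± 0.17), and this ratio hardly moved by counts, at 3.11. Genes of motile cilia, given beside them because kinesin-2 and dynein 2 serve cilia, were scarce. Only Dnah1 (9.46 ± 1.69 CPM) and Dnah5 (5.03 ± 2.02 CPM) were detected of 14 axonemal dynein heavy chain genes, whose summed level was 17.1, 31.0 and 19.9 CPM. Kif19a, a depolymerase of motile cilia named after its values were seen, had 0, 24 and 3 counts. Of 6 ependymal and choroid plexus markers, which summed to 4.10, 45.0 and 3.76 CPM, 2 were detected. Ttr, of choroid plexus, was at 0, 41.95 and 0 CPM, while Folr1, also of choroid plexus, was at 0 in every library. Of the ependymal markers, Foxj1 was at 1.62, 1.40 and 1.84 CPM and Rsph1 at 1.88, 1.47 and 1.77, both lowest in replicate 2. Tmem212 had 6, 0 and 0 counts and Ccdc153 had 1, 2 and 2, too few to compare the libraries. The axonemal sum hid genes that were not highest in replicate 2. These were Dnah2 (6, 2 and 33 counts), Dnah6 (7, 2 and 0), Dnah8 (4, 2 and 10) and Dnah11 (0, 0 and 2). The part of the choroid plexus signal, seen in Ttr alone, in the counts of Kif19a, Kif11 and the axonemal genes was not tested.

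Dynactin links dynein to cargo and makes it processive. All 6 numbered subunit genes were detected. Dctn4, the p62 subunit of the pointed end, was at 177, 255 and 232 CPM, Dctn2 (dynamitin), which joins the arm to the filament, at 105, 104 and 94.8, and Dctn5, also at the pointed end, at 66.1, 68.0 and 73.5. Dctn1, the p150Glued subunit that binds microtubules and dynein, was lower, at 51.3, 60.6 and 54.2 CPM, and Dctn3, its arm partner, was at 34.8, 34.9 and 46.9. Per kilobase the order differed, because the union of annotated exons is 11591 bases for Dctn4 and 1042 for Dctn3. The coding transcripts used for the 50-base stretches were 2948 and 973 bases long, so the low share of Dctn4 rests on the union. Dctn3 made up 28.0% ± 3.35 of the 6 genes, Dctn5 19.7% ± 0.608, Dctn2 16% ± 1.98, Dctn6 15.4% ± 0.49, Dctn4 14.4% ± 2.02 and Dctn1 6.43% ± 0.559. By counts Dctn4 held 40.4% and Dctn3 7.16%. Dctn1 was below Dctn2 in 3 of 3 libraries, with a log2 ratio of -1.31 ± 0.14 per kilobase of exon, -0.87 by counts, -2.54 per coding kilobase and -1.63 per kilobase of the longest transcript. It was also below Dync1h1, by -1.46 ± 0.12 per kilobase of exon, -2.72 by counts, -0.86 per coding kilobase and -0.99 per kilobase of the longest transcript. The 6 dynactin genes named outside the rule, for the actin-related filament and its capping proteins, were all detected, from Capza1 at 23.7 ± 0.392 CPM to Capzb at 407 ± 39.8.

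**Figure D3:**
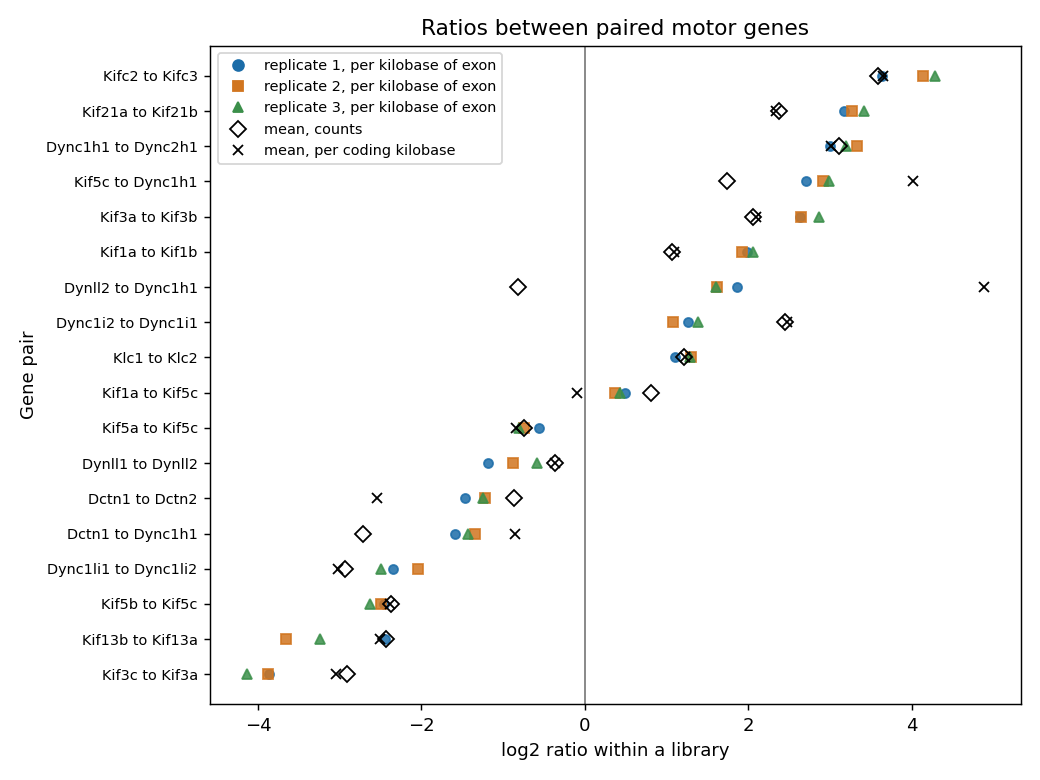
The log2 ratio within each library for the 18 pairs of motor genes, per kilobase of exon (coloured symbols, 1 per replicate), with the mean by counts (diamonds) and per coding kilobase (crosses); the vertical line marks equal levels. All 18 pairs kept their sign in 3 of 3 libraries per kilobase of exon. Dynll2 to Dync1h1 lay at -0.82 by counts and Kif1a to Kif5c at -0.09 per coding kilobase. Of 20 listed pairs, the 18 shown had reads in every library. They were chosen with earlier results of these data known, so the shared sign is a description and not independent evidence.

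Ordered by level per kilobase of exon, the members began with Dynlrb1, Kif1a, Kif3a, Kif5c, Dynlt3, Kif5a, Kif21a, Dynll2, Klc1 and Dync1li2. Of the 42 neighbouring pairs in the order of the 43 detected genes, 31 had overlapping ranges over the 3 libraries, among them Kif3a with Kif5c, Dynlt3 with Kif5a, and Dynll2 with Klc1. The other 11 were apart in every library, such as Dynlrb1 above Kif1a and Kif1a above Kif3a. This order holds for the union of exons as the length: the overlap of ranges covers the spread between libraries only, and Kif1a and Kif5c changed places per coding kilobase.

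Genes that work with the motors were also mostly detected, and none of the tested ones passed the between-library test described next. All 22 kinesin cargo adaptors were detected, from Ppfia4, a liprin, at 14.6 ± 1.79 CPM to Kidins220, a neurotrophin receptor scaffold carried by kinesin-1, at 467 ± 23.0. Of 16 dynein activators and adaptors, 13 were detected, with Pafah1b1 (Lis1), the dynein regulator mutated in lissencephaly, highest at 454 ± 15.4 CPM and Ccdc64 lowest at 2.28 ± 0.435. Of the 4 MAP7 family genes, cofactors that recruit kinesin-1 to microtubules, 3 were detected, with Map7d2 highest at 502 ± 22.9 CPM and Map7 lowest at 48.1 ± 3.52.

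With a single group, the test that the design allows is whether a gene varied between libraries more than genes of its level, by edgeR's quasi-likelihood fit with Benjamini-Hochberg adjustment over 12509 genes. None of the 44 members past the count filter passed at 0.05, where 0.0959% of all genes did (12 genes). At an unadjusted p under 0.05 there were 3 of 44 members (6.82%), close to the 5.78% of all genes. These were Kif11 (edgeR adjusted p = 0.513), Klc4 (adjusted p = 0.691) and Dctn4 (adjusted p = 0.805). Kif11 and Klc4 were highest in replicate 2, and Dctn4 was lowest in replicate 1. Summed markers of other cell types were also highest in replicate 2, at 2531, 4066 and 3416 CPM for astrocytes, 607, 737 and 555 for oligodendrocytes, 40.3, 61.3 and 59.3 for microglia, and 17.7, 25.4 and 20.9 for endothelial and mural cells. The sums hid genes in every list that went otherwise. Gfap (14.8, 11.8 and 11.5 CPM) and Aldh1l1 (9.81, 5.46 and 7.09 CPM) were highest in replicate 1. So were Mbp (161, 155 and 97.2 CPM) of oligodendrocytes and Pecam1 (3.58, 0.590 and 0.0709 CPM) of endothelial cells. C1qb (6.74, 5.68 and 8.08 CPM) and P2ry12 (10.4, 9.66 and 12.6 CPM) were lowest in replicate 2. Mag, Pdgfrb and Cx3cr1 were highest in replicate 3. The part of other cell types in the levels of these members was not tested. Each rested on particular libraries: without replicate 2 only Klc4 was left of them, without replicate 1 Kif11 and Klc4, and without replicate 3 Kif11 and Dctn4. Among members above 10 CPM, the widest ranges on the log2 scale were those of Kif16b, Kifc3, Dctn4, Dctn3 and Dync1li1, whose values are given above, and the highest of these was in replicate 3 for Kif16b and Dctn3, in replicate 1 for Kifc3 and in replicate 2 for Dctn4 and Dync1li1.

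The median coefficient of variation of the 44 members was 10.6%, where that of all genes past the filter was 15.2%. The members are more abundant than most genes, and at a mean of 100 CPM or more the medians were 7.16% (22 members) and 8.06% (2050 genes). Of the 44 members, 11 were highest in replicate 1, 16 in replicate 2 and 17 in replicate 3, or 25%, 36.4% and 38.6%, and the shares over all genes were 36.6%, 32.4% and 31.0%. Nuclear noncoding RNA was highest in replicate 1 and 61.86% of all tallied reads fell in genes there, against 67.56% and 70.7% in replicates 2 and 3. The part of these differences in the lower levels of Kif3a, Kif5c or Dctn4 in replicate 1 was not tested.

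**Figure D4:**
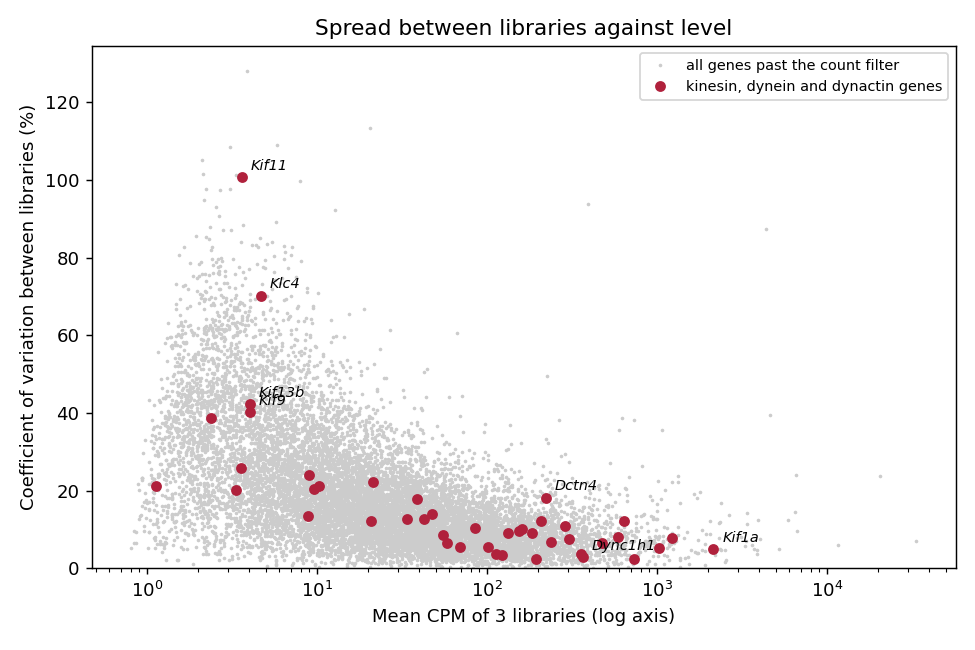
Coefficient of variation between the 3 libraries (percent) against mean CPM (log axis) for all genes past the count filter in grey and the 44 motor genes in red, with named examples. Kif11 and Klc4 lie high among genes of low level, and the abundant members, such as Kif1a and Dync1h1, vary by little.

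The promoters of the members were compared by their CG pairs, since promoters rich in CG are common among genes used in many cell types. RefSeq windows on GRCm38.p6, from 250 bases before to 50 bases after a start, were at hand for 50 members. The 31 detected members had a median of 26.0 CG pairs in the 300 bases, and the 19 that were not detected had 25. Over all rows with a window, members included, the medians were 21 for 9010 detected genes and 4.0 for 8056 that were not detected. At least 10 CG pairs occurred in 87.1% of detected members, 78.9% of members not detected, 86.9% of all detected genes and 26.6% of all genes not detected. These shares describe the windows, and no test was made of them.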

How the data were processed

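RNA from 3 immunopurified libraries of Kcnip2-TRAP cortex was analysed. Per the file contents, the authors deposited whole-number read counts for each gene symbol, with no normalization. STAR 2.0.0e, HTSeq and the mm10 build were used, per the submitters' processing notes. The counting mode, strand setting, annotation release and library kit were not given in the sources used here. Reads of overlapping or antisense genes therefore cannot be told apart. The counter's special rows (no feature 12.83% to 16.37%, ambiguous 2.374% to 2.654%, not unique 13.81% to 19.39% of all tallied reads) were left out of library sizes.

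CPM were computed with TMM-scaled library sizes (edgeR 4.0.16, limma 3.58.1, R 4.3.3). Levels per kilobase used the union of annotated exons in GENCODE M21 (GRCm38), matched for all 67 members and 97.0% of detected genes. Such a union can be longer than the transcript in use. Ratios within a library used a prior count of 0.5. The between-library test was an intercept-only, robust quasi-likelihood fit over 12509 genes past edgeR's filterByExpr (minimum count 10), taking the upper tail of each gene's dispersion over the trend, and was tested on simulated data. Every library pair differed beyond counting noise (chi-square per degree of freedom 12.3 to 28.5), so none is the same library sequenced again. This comparison cannot tell separate animals from separate preparations of the same RNA. The common biological coefficient of variation was 0.197. Scaling, filter, detection threshold, length, prior count and left-out replicates were varied.

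The members, role lists, pairs and marker lists were chosen with earlier results of these data known. Named genes were the 3 highest of each role list, the genes of the listed pairs, any member past the between-library test, and the 5 members above 10 CPM with the widest log2 range. Other detected members could be named under their role, and of pathway and marker lists the highest and the lowest detected gene.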

Additional observations from a re-analysis of the deposited data

How the results depend on the processing

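The number of members detected was 43 at 1 CPM, 47 at 0.5 CPM and 36 at 5 CPM, and 43 to 46 with a replicate left out. No member passed the adjusted between-library test under any scaling, filter, moderation or left-out replicate tried. Over all genes, the number passing was 12, and was 66 with no filter, 5 without robust moderation and 4 to 10 with a replicate left out, lowest without replicate 2. Members at an unadjusted p under 0.05 numbered 3, and 1 to 2 with a replicate left out. The median level of members with a read was 20.7 CPM, or 93.3 CPM for those past the filter only, and 18.9 to 20.9 CPM with a replicate left out. Per kilobase it was 2.56, or 20.8 past the filter, which keeps fewer and more abundant genes. Division by length mattered most: of 25 ratios between genes or subunit classes, 22 moved by more than the spread between libraries by counts, 22 with coding length and 18 with the longest transcript, and none did with another prior count or a left-out replicate. Of 20 listed pairs, chosen with earlier results known, 18 had reads in every library. Those with 1 sign in every library were 18 per kilobase of exon and 17 with the longest transcript, where Dynll1 to Dynll2 lost it. The ratios that changed sign were Dynll2 to Dync1h1 (-0.82) and intermediate to heavy chains (-0.74) by counts, and Kif1a to Kif5c (-0.09) with coding length. Coding length, the per-kilobase median, Kif11 without replicate 2 and the alternatives for the unadjusted count were chosen after seeing the data. Depth limits statements on members with few counts. No paired analysis was possible because the libraries form a single group.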
